A study of Bos taurus with 8 samples.

Results

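The csrp, fhl, and pdlim genes encode small proteins built around LIM domains, zinc-binding folds through which one protein holds another. For 9 of these genes (*csrp1*, *csrp2*, *csrp3*, *fhl1*, *fhl2*, *fhl3*, *pdlim3*, *pdlim5*, and *pdlim7*), probes were looked for through the RefSeq accession that the array gives for each probe. For 6 of the 9 genes (*csrp1*, *csrp2*, *csrp3*, *fhl2*, *fhl3*, and *pdlim7*) a probe was matched, 1 for each gene, among 21475 probes on the array, of which 8297 carried a gene name. All 6 probes were bright enough to be tested. The other 3 genes, *fhl1*, *pdlim3*, and *pdlim5*, had no matched probe and were not analysed here. The genes were chosen with the beef over dairy values in view, to set *csrp2*, lower in cells of beef breeds, against its relatives. They were thus selected on the log2 ratio of beef over HF cells. Their beef over dairy values are therefore given as a description, and no p of theirs in that contrast is printed or read.

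The study compared proliferating muscle cells of beef bulls, Limousin (LIM) and Hereford (HER), with those of dairy bulls, Holstein-Friesian (HF). Below, LIM alone stands for the Limousin breed, and LIM-domain for the protein fold. The cells were primary cultures from semitendinosus muscle, taken from 4 bulls per breed at 15 months of age, grown in serum-containing medium and frozen at 80% confluence, and no group was treated. RNA of a beef culture and of an HF culture shared each of 8 arrays, with 4 arrays per beef breed. HER cells were labeled with Cy3 and their HF partner with Cy5, whereas LIM cells were labeled with Cy5 and their HF partner with Cy3. One slide held all LIM arrays and another all HER arrays. Within LIM or within HER, the effects of breed, slide, and dye therefore cannot be told apart. Because the dyes were swapped from one slide to the other, a dye effect cancels in the mean of both. Which HF bull was on which array is not given in the sources used here, so the comparisons may share HF bulls. The p-values and the SDs over 8 arrays treat the arrays as independent. Such cultures are not a single cell type, because other cells of muscle tissue grow beside the satellite cells (the stem cells of muscle) and the myoblasts that come from them.

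As background, CSRP1 and CSRP2 carry a pair of LIM domains, are known from smooth muscle, and link actin filaments with the transcription factors SRF and GATA. CSRP3, also called muscle LIM protein, belongs to striated muscle, where it lies at the Z-disc, the border of the contractile unit. FHL proteins consist almost wholly of LIM domains and act as adaptors at the cytoskeleton and as cofactors of transcription. PDLIM7 (Enigma) belongs to proteins that join a PDZ domain, which holds on to actin-associated partners such as tropomyosin, with LIM domains.

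Values are log2 ratios of beef over HF on an array, so that -1 is a level 2 times lower in the beef cells. The share of probes well above background was between 64.0% and 82.0% in beef channels and between 70.4% and 74.5% in HF channels, and no spot was saturated. LIM replicate 4 stood apart from the other arrays, with the lowest array weight (0.290, against 0.799 to 1.96) and correlations over probes between 0.0856 (with HER replicate 3) and 0.566 (with HER replicate 4), while the highest correlation of each other array was between 0.652 and 0.789. HER replicate 3 also correlated weakly with LIM replicate 2 (0.312) and HER replicate 4 (0.342). Its median correlation (0.440) was lower than that of LIM replicate 4 (0.551), and it had the most outlier spots (130, against 6 to 37). Ratios of the 6 genes to HF that LIM replicate 4 moved by over 1.5 times are given with and without that array. Of 8 matched markers of satellite cells and myoblasts, 7 were above background in all channels, among them *des*, *myf5*, *myod1*, and *cdh15*. The other, *mstn*, was above background in none, and *pax7* had no matched probe.

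Of the genes with a probe, *csrp2* had the lowest ratio on 7 of 8 arrays. Its log2 ratio was -2.06, -1.74, -1.46, and -0.23 on LIM replicates 1 to 4. On HER replicates 1 to 4 it was -1.17, -1.23, -1.55, and -0.96. All ratios lay below 0, with the HER arrays close together and LIM replicate 4 far above the other LIM arrays. The mean was -1.37 ± 0.80 (SD, n = 4) in LIM, a level 2.59-fold lower than in HF, and -1.22 ± 0.24 (SD, n = 4) in HER, a level 2.34-fold lower. Without LIM replicate 4, the LIM mean was -1.75 and the mean of both beef breeds, otherwise -1.30, was -1.49. In bulk cultures, fewer cells that express a gene and less RNA per cell cannot be told apart.

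The intensities of the *csrp2* spots, from which its ratios are formed, are given as a description and are no separate evidence. On the HER arrays, its intensity was 2156 to 6201 in the beef channel and 6274 to 14503 in the HF channel. On the LIM arrays, it was 3463 to 7462 in LIM cells and 8742 to 16766 in HF cells. Beef and HF intensities did not overlap in either comparison, though in HER only narrowly (6201 against 6274). The share of all probes without such overlap was not counted, here or for the genes below. Both spots of the *csrp2* probe on an array differed by at most 0.10 on the log2 scale. Among the 16807 tested probes, ranked from the lowest, the mean of the beef breeds (-1.30 ± 0.19, SE) was number 428.

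**Figure D1:**
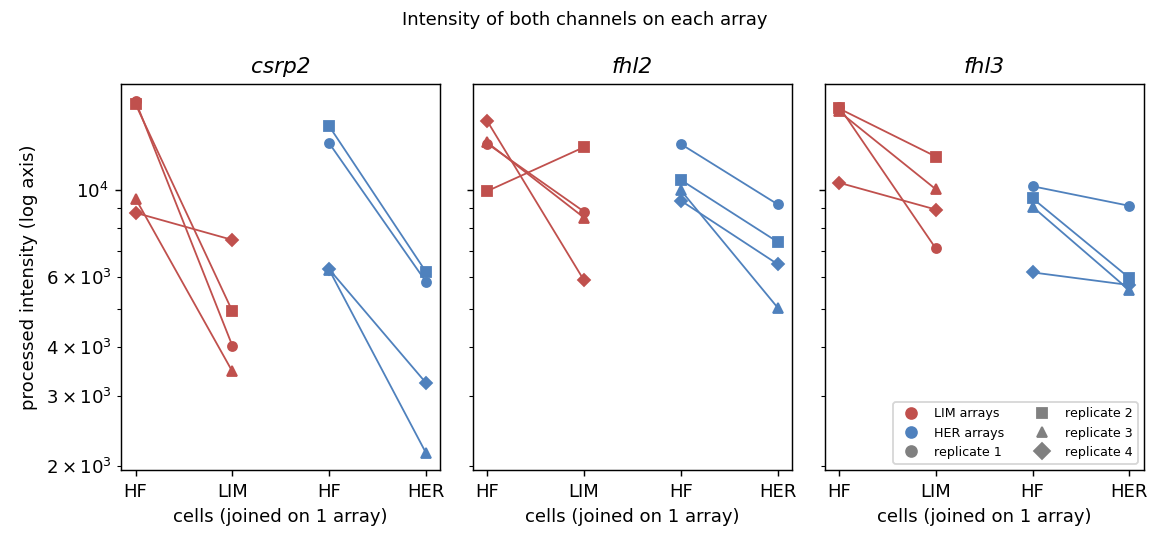
Processed intensity (vertical log axis) of *csrp2*, *fhl2*, and *fhl3* in the HF and the beef channel, where each line joins both channels of 1 array, red for LIM and blue for HER arrays. All *csrp2* lines fall from HF to beef, from 8742 to 7462 on LIM replicate 4 and from 16766 to 4025 on LIM replicate 1, while the *fhl2* line of LIM replicate 2 rises from 9924 to 12824.

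*csrp1*, the closest relative of *csrp2* in smooth muscle, was not low in the same cells. Its log2 ratio was 0.41, 0.22, 0.33, and -0.20 on LIM replicates 1 to 4, and 0.54, 0.51, 0.29, and 0.15 on HER replicates 1 to 4. It was above 0 on 7 of 8 arrays, and the exception was LIM replicate 4. The means were 0.19 ± 0.27 in LIM and 0.37 ± 0.19 in HER (SD, n = 4 each), which is 1.14-fold and 1.29-fold the HF level. Without LIM replicate 4, the LIM mean was 0.32. The *csrp1* intensities of beef and HF cells overlapped in both comparisons.

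*csrp3* was measured near the background and its values scattered. Its intensity was between 14.3 and 105, and it was well above background in 12 of 16 channels, with HER replicates 1 and 3 below in both channels. The log2 ratio was 0.97, -0.39, -0.75, and 0.77 on LIM replicates 1 to 4, and 0.39, 1.13, 0.01, and 0.75 on HER replicates 1 to 4. The LIM arrays fell on both sides of 0, and the HER arrays above it. The means were 0.15 ± 0.85 in LIM and 0.57 ± 0.48 in HER (SD, n = 4 each). The 2 spots of an array differed by up to 0.81 on the log2 scale, and without LIM replicate 4 the LIM mean was -0.06, so no direction can be read for this gene of striated muscle.

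**Figure D2:**
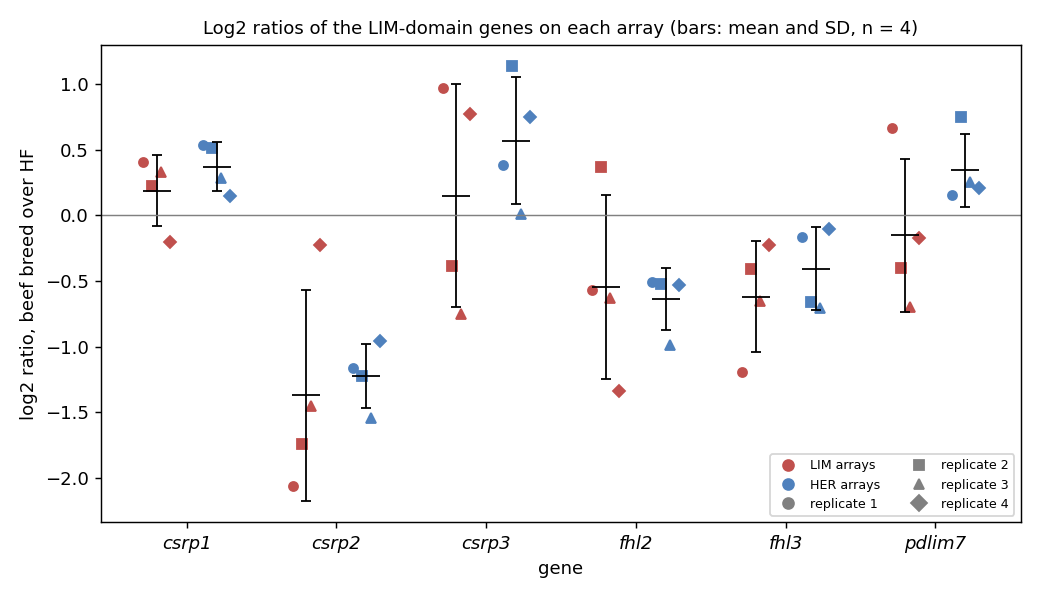
Log2 ratio of beef over HF (vertical axis) of each gene on each array, red for LIM and blue for HER arrays, with a marker shape per replicate and black bars for the mean and SD of 4 arrays. *csrp2* lies below 0 on all arrays with means of -1.37 and -1.22, and *csrp1* lies above 0 on all but LIM replicate 4.

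*fhl2* and *fhl3* were lower in beef cells by smaller amounts than *csrp2*. *fhl2*, a cofactor best known from heart muscle, had log2 ratios of -0.57, 0.37, -0.63, and -1.34 on LIM replicates 1 to 4. On HER replicates 1 to 4 the ratios were -0.51, -0.52, -0.99, and -0.53. It was below 0 on 7 of 8 arrays, the exception being LIM replicate 2. The means were -0.54 ± 0.70 (SD, n = 4) in LIM, 1.46-fold lower, and -0.64 ± 0.23 (SD, n = 4) in HER, 1.56-fold lower. On the HER arrays, *fhl2* intensities of 5028 to 9186 in beef cells and 9384 to 13058 in HF cells did not overlap, whereas on the LIM arrays they did. Without LIM replicate 2 the LIM mean was -0.85, and without LIM replicate 4 it was -0.28.

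*fhl3*, the family member described mainly in skeletal muscle, was below 0 on all 8 arrays. Its log2 ratio was -1.19, -0.41, -0.66, and -0.23 on LIM replicates 1 to 4, and -0.16, -0.66, -0.70, and -0.11 on HER replicates 1 to 4. The means were -0.62 ± 0.42 (SD, n = 4) in LIM, 1.54-fold lower, and -0.41 ± 0.32 (SD, n = 4) in HER, 1.33-fold lower. Beef and HF intensities of *fhl3* overlapped in both comparisons, so the direction showed within arrays rather than between them.

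*pdlim7* had no common direction. Its log2 ratio was 0.66, -0.40, -0.70, and -0.17 on LIM replicates 1 to 4, and 0.15, 0.75, 0.26, and 0.21 on HER replicates 1 to 4. All HER arrays lay above 0, against 1 of 4 LIM arrays. The means were -0.15 ± 0.58 in LIM and 0.34 ± 0.28 in HER (SD, n = 4 each).

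A probe was called where its Benjamini-Hochberg adjusted p over all tested probes was at most 0.05 in limma and its fold change was 1.3 or more. In LIM, 2 of the 6 genes (*csrp2* and *fhl3*) were called, both lower, where 35.3% of all probes were called and 19% were called lower. In HER, 1 of 6 (*csrp2*) was called, also lower, where 25.4% of all probes were called and 14.4% were called lower. In the mean of the beef breeds, 3 of 6 (*csrp2*, *fhl2*, and *fhl3*) were called, all lower, where 38.9% of all probes were called and 20.8% were called lower. Because the same values chose the genes, nothing is read from these counts. The HER count fell to 0 without HER replicate 1, 2, or 3, where the log2 ratio of *csrp2* was -1.24, -1.22, and -1.12. *csrp2* and *fhl3* were lower on 8 of 8 arrays, as were 17.5% of all probes.

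Place among all probes of an array is formed from the same ratios, so it keeps the order of the genes within an array. It shows how far each gene lay from the middle of all probes. *csrp2* lay between the percentiles 1.35 and 6.62 on 7 arrays and at 36.1 on LIM replicate 4. *csrp1* lay between 67.1 and 80.1 on 7 arrays and at 37.3 on LIM replicate 4. Thus LIM replicate 4 held the most central place of *csrp2* and the lowest of *csrp1*.

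**Figure D3:**
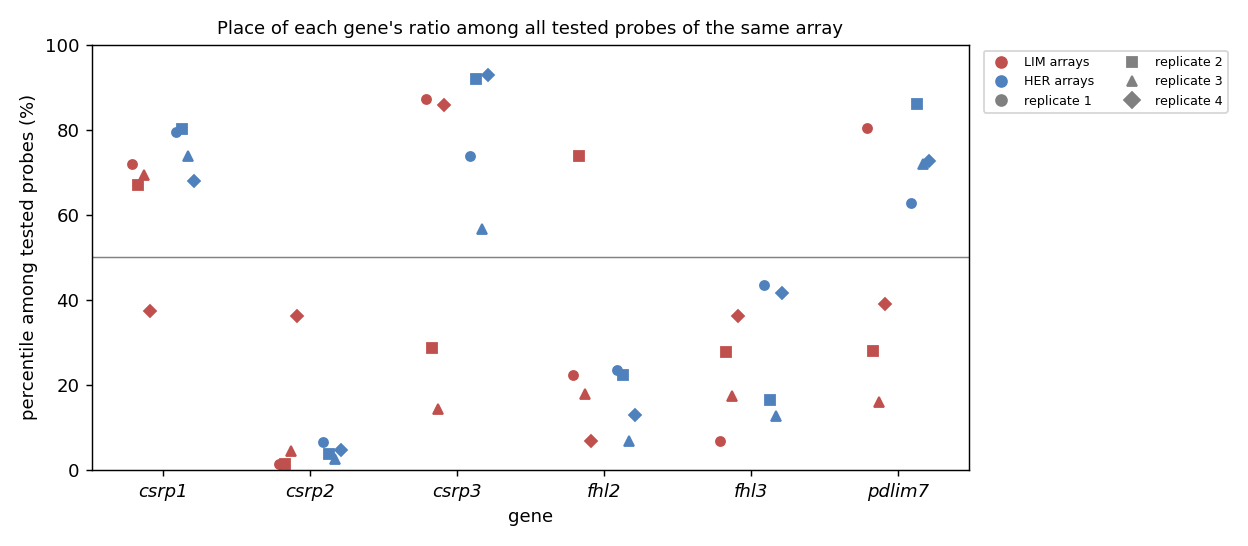
Percentile of each gene's log2 ratio among the 16807 tested probes of the same array (vertical axis, 0 for the lowest ratio, with a line at 50), red for LIM and blue for HER arrays, with a marker shape per replicate. *csrp2* lies below 7 on every array but LIM replicate 4, where it lies at 36.1, and *pdlim7* lies at 62.9 or above on all HER arrays and on 1 LIM array.

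The distance between *csrp2* and each relative was taken within an array, where both genes share the cultures and the hybridization. Because *csrp2* was chosen as the gene lower in beef cells, these distances and their signs rest on the values behind that choice. They are a description, and the share of other genes with such signs was not counted. The log2 ratio of *csrp2* minus that of *csrp1* was -1.58 ± 0.73 (SD, n = 8), below 0 on 8 of 8 arrays, although on LIM replicate 4 it was only -0.02. Against *csrp3* it was -1.66 ± 0.74, and against *pdlim7* -1.39 ± 0.80, also below 0 on 8 of 8 arrays. *fhl3* and *fhl2* were nearest to *csrp2*, at -0.78 ± 0.38 (below 0 on 8 of 8) and -0.71 ± 0.93 (7 of 8). On LIM replicate 4, *fhl2* lay 1.11 below *csrp2*. Without that array, the distance was -0.97 ± 0.61 to *fhl2*, -0.89 ± 0.23 to *fhl3*, -1.58 ± 0.64 to *pdlim7*, -1.80 ± 0.40 to *csrp1*, and -1.75 ± 0.75 to *csrp3* (SD, n = 7), below 0 on 7 of 7 arrays for each. Ordered by the mean of the beef breeds, the genes ran from *csrp2* (-1.30) over *fhl2* (-0.59), *fhl3* (-0.51), *pdlim7* (0.09), and *csrp1* (0.28) to *csrp3* (0.36). No neighbours in this order differed by more than the SD of their difference over the 8 arrays, which was 0.93 for the largest step (0.71, from *csrp2* to *fhl2*) and 0.72 for the next (0.61, from *fhl3* to *pdlim7*). Without LIM replicate 4, the step from *csrp2* to *fhl2* (0.97) was larger than its SD (0.61). That array is the one where *csrp2* was least low, so nothing is read from this change.

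The ratios to HF were then compared between LIM and HER, the contrast that was not used to choose the genes. None of the 6 genes was called in the fit by limma, where 9 probes, 0.0535% of all, were called. At an unadjusted p of at most 0.05, 13.6% of all probes and none of the 6 genes were called, and the methods' t-test called none of them either. For *pdlim7* the difference was -0.49 (95% confidence interval -1.17 to 0.19, adjusted p = 0.495 in limma), with HER higher, and it ran from -0.77 to -0.31 when each array was left out in turn. For *csrp2* the difference was -0.15 (-1.0 to 0.70, adjusted p = 0.894 in limma), and without LIM replicate 4 it was -0.53 (adjusted p = 0.258 in limma). The differences were -0.42 (-1.40 to 0.56) for *csrp3*, -0.21 (-0.79 to 0.36) for *fhl3*, -0.18 (-0.60 to 0.23) for *csrp1*, and 0.09 (-0.67 to 0.86) for *fhl2*, with adjusted p between 0.701 and 0.928 in limma. Without LIM replicate 4 they were -0.63 for *csrp3*, -0.34 for *fhl3*, -0.05 for *csrp1*, and 0.36 for *fhl2*. LIM and HER ratios overlapped for all 6 genes, while for 10% of all probes they did not. The intervals for *csrp2*, *csrp3*, *fhl2*, and *pdlim7* leave room for differences above 0.8 in size, so these values do not show that the breeds were alike. Dye and slide coincide with this contrast.

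Among 6590 other named genes, those with the pattern most like *csrp2* were sought by the root mean square difference of the 8 log2 ratios, with no test. The closest were *irf5*, an interferon regulatory factor (0.27), *tes*, itself a LIM-domain gene (0.30), *pop5*, a subunit of RNase P (0.38), *shmt1*, an enzyme of folate metabolism (0.40), and *cubn*, a receptor for vitamin B12 uptake (0.41). On LIM replicate 4, where *csrp2* was at -0.23, *tes* was at -0.25, *pop5* at -0.29, *shmt1* at -0.37, and *irf5* at -0.80. *cubn* was at 0.32 there, above 0. The relatives were farther from *csrp2*. *fhl3* was at 0.86, with 443 genes closer, *fhl2* at 1.12, *pdlim7* at 1.58, *csrp1* at 1.72, and *csrp3* at 1.79.

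Other LIM-domain genes were read from a list of 41, of which 26 were tested. In the mean of the beef breeds, 7 were called lower, 2 were called higher, and 17 were not called, with a median log2 ratio of -0.20. Over all tested probes, 3501 (20.8%) were called lower and 3034 (18.1%) higher of 16807, with a median of -0.04. *lpxn* (leupaxin, an adhesion adaptor of the paxillin family) was lower, at -1.75 ± 0.49 in LIM and -0.89 ± 0.40 in HER (SD, n = 4, adjusted p = 0.000312 for the mean in limma). *ajuba*, an adaptor of cell junctions, was lower, at -1.58 ± 0.46 and -0.78 ± 0.40 (adjusted p = 0.000409 in limma). *tes* (testin, a protein of focal adhesions) was lower, at -1.13 ± 0.70 and -1.23 ± 0.31 (adjusted p = 0.000898 in limma). All 3 were lower on 8 of 8 arrays. Genes given with a p in this and the following related lists were named by a rule. It took only genes called in the mean of the beef breeds with the same sign on 8 of 8 arrays. Their calls, small p-values, and shared signs were thus fixed by that choice and are a description.

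*tes* is also among the genes closest to *csrp2* above, so its likeness to *csrp2* was fixed by that choice. On LIM replicate 4, *lpxn* was at -2.42 and *ajuba* at -2.26, their lowest values, while *tes* was at its highest. The other LIM-domain genes called lower were *nrap* (mean of the beef breeds -1.14), *tgfb1i1* (-0.69), *ablim3* (-0.50), and *ldb3* (-0.49), which were named after their values were seen. Of these, *nrap* and *ldb3* encode proteins of striated muscle, and *tgfb1i1* encodes Hic-5, an adhesion adaptor like leupaxin.

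*lmcd1*, a cofactor that restrains GATA6, was at 0.68 ± 0.58 in LIM, which was not called, and higher, at 0.90 ± 0.51, in HER (SD, n = 4, adjusted p = 0.00608 for the mean in limma) and was higher on 8 of 8 arrays. *lims2* (PINCH-2, which binds integrin-linked kinase) was the other gene called higher, at 1.14, and it was higher on 7 of 8 arrays. Of the other pdlim genes in this list, *pdlim1* was at 0.19 and *pdlim4* at -0.20, and neither was called. *pdlim2* had no matched probe.

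**Figure D4:**
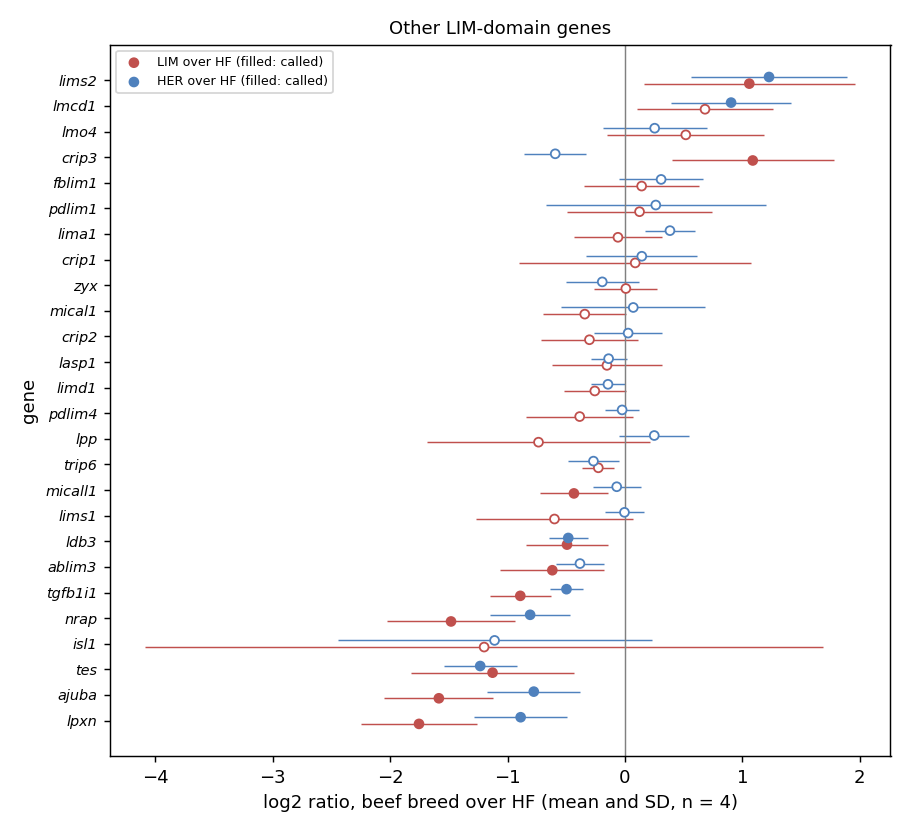
Log2 ratio of beef over HF (horizontal axis, mean and SD of 4 arrays) of the 26 tested LIM-domain genes other than the csrp, fhl, and pdlim genes described above, red for LIM and blue for HER, filled where called. Genes are ordered by the mean of both breeds, with *lpxn*, *ajuba*, and *tes* at the bottom and *lims2* and *lmcd1* at the top. *crip3* was well above background only in the 4 LIM channels and passed the filter on dim probes only through them. Its LIM level is at least 1.06-fold that of HF, and no direction is read for it in LIM or in HER.

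Partners of the proteins were read from a list of 35 names, of which 15 genes were tested. In the mean of the beef breeds, 4 were called lower and 2 higher, with a median of -0.03, where 20.8% and 18.1% of all probes were. *gata4*, a transcription factor that CSRP proteins bind, was lower, at -0.98 ± 0.66 in LIM and -1.09 ± 0.45 in HER (adjusted p = 0.00199 for the mean in limma). *pias1*, a SUMO ligase, was lower, at -1.80 ± 0.60 and -0.78 ± 0.36 (adjusted p = 0.000450 in limma). *myoz3*, a Z-disc protein of the calsarcin family, was lower, at -0.81 ± 0.04 and -0.63 ± 0.26 (adjusted p = 0.000334 in limma). *tcap*, the titin cap that binds CSRP3 at the Z-disc, was the fourth gene called lower, at -0.55, and was named after its value was seen.

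*itga7*, the integrin chain of muscle cells and also one of the markers of satellite cells and myoblasts, was higher, at 1.63 ± 0.41 in LIM and 1.40 ± 0.61 in HER (adjusted p = 0.000307 for the mean in limma). *myoz2*, another calsarcin, was not well above background in HF cells on any array. Its level was at least 2.50-fold higher in LIM (4 arrays above background) and at least 2.00-fold higher in HER (3 of 4 arrays above background). It passed the filter on dim probes only through the beef channels, and with a filter of 8 of 16 channels 1 partner was called higher. The actin cross-linkers *actn1* (0.20) and *actn3* (0.30) and vinculin (*vcl*, -0.03) were not called. *srf* had no matched probe.

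Genes of smooth muscle contraction, the tissue from which CSRP1 and CSRP2 are known, were mostly higher in beef cells. Of 10 tested genes, 6 were called higher in the mean of the beef breeds, where 18.1% of all probes were, with a median of 0.92, and 8 were called higher without LIM replicate 4. The other 4 genes were *cnn1* (0.72), *tagln* (0.60), *lmod1* (0.42), and *synpo2* (0.01), named after their values were seen. The LIM means of *tagln* (-0.002 ± 1.67) and *lmod1* (-0.11 ± 0.87, SD, n = 4 each) were not above 0. Still, *tagln* was higher on 7 and *lmod1* on 6 of 8 arrays. For *synpo2*, the HER mean (-0.20 ± 0.66) was not above 0. *tpm1*, a tropomyosin of many muscle types, was higher, at 2.28 ± 0.61 in LIM and 2.13 ± 0.47 in HER (adjusted p = 0.000135 for the mean in limma). *myl9*, a regulatory light chain, was higher, at 1.07 ± 0.58 and 1.12 ± 0.39 (adjusted p = 0.000898 in limma). *myh11*, the smooth muscle myosin heavy chain, was at 1.16 ± 0.63 in LIM, which was not called, and higher, at 1.96 ± 1.19, in HER (adjusted p = 0.00289 for the mean in limma), and it was well above background in HF cells on 5 of 8 arrays.

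Several lists of markers of the cell types that such cultures can hold differed between beef and HF cells. Some of the lists also stood apart on LIM replicate 4. In the mean of the beef breeds, 18.1% of all tested probes were called higher and 20.8% lower. Of 8 tested markers of differentiating muscle cells, all 8 were called higher in that mean (median 3.33). Their summed intensity over 9 matched markers was 13793 to 102220 in beef and 1692 to 9448 in HF channels. Of 7 tested markers of satellite cells and myoblasts, 6 were called higher (median 1.52). Of 8 markers of fibroblasts, 6 were called higher, among them *col1a1*, *col1a2*, and *col3a1*, and 2 lower, *pdgfra* and *tcf21*. Their summed intensity was 279212 to 788889 in beef and 55225 to 227269 in HF channels. Of 5 tested markers of smooth muscle cells and pericytes, 3 were called higher (*acta2*, *myh11*, and *mcam*), with a summed intensity over 6 markers of 212998 to 424068 in beef and 79360 to 231677 in HF channels. *rgs5* was above background in 1 of 16 channels. The adipocyte list was lower in beef on 8 of 8 arrays, as *csrp2* was, only by summed intensity, to which bright probes add most. This sum was 17988 to 63653 in beef and 55064 to 149788 in HF channels. The median log2 ratio of these markers was 0.29 in the mean of the beef breeds. Of 5 tested markers, 2 were called higher (*plin1* and *lpl*) and 2 lower (*cebpa* and *pparg*). *plin1* was well above background in 2 HF and 8 beef channels, and *lpl* in 3 HF and 7 beef channels. Both thus passed the filter on dim probes only with the beef channels, and their calls are a description. Under the alternatives of processing, 0 to 2 adipocyte markers were called higher and 1 to 2 lower.

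On LIM replicate 4, the median log2 ratio of the fibroblast markers was 0.19, against 0.48 to 2.45 on the other arrays, and that of the smooth muscle contractile genes was -0.01, against 0.75 to 1.82. The median of the differentiating muscle cell markers there was 3.35, within the range of the other arrays (2.44 to 4.15). Medians of satellite cells and myoblasts (1.21, others 0.78 to 2.30) and of endothelial cells (3.09, others -2.40 to 3.32) also lay within that of the other arrays. For smooth muscle cells and pericytes, the median there was 0.44, against 0.62 to 1.92. The median of the dividing cell markers was 0.58 there, against -1.25 to -0.01 on the other arrays, that of the adipocyte markers was -0.99, against -0.51 to 1.56, and that of 2 leukocyte markers was 1.12, against -0.14 to 1.09. The ratio of *csrp2* was nearest to 0 on the same array. The part of these cell types in the *csrp2* ratio was not tested.

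**Figure D5:**
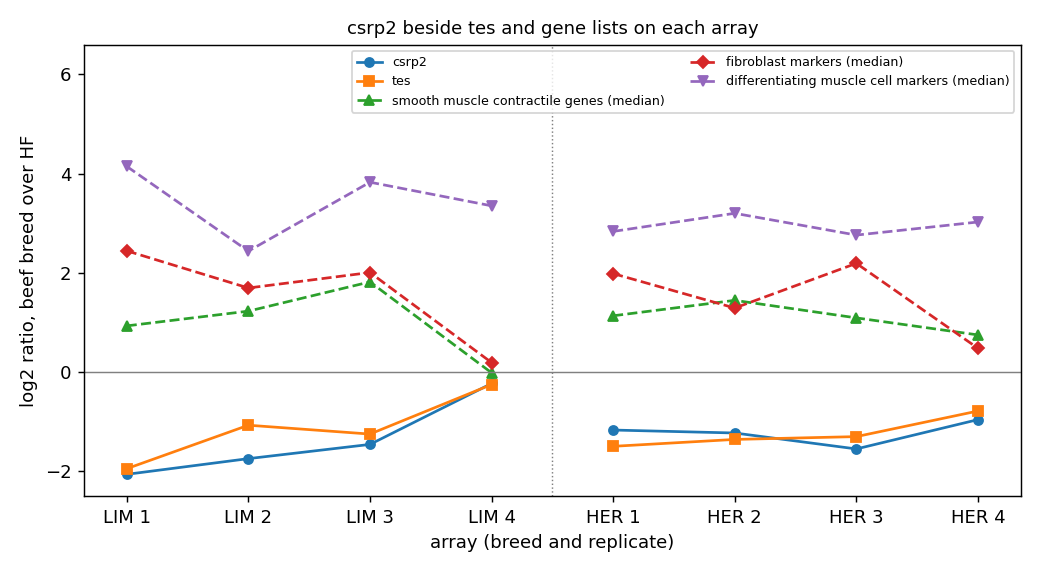
Log2 ratio of beef over HF (vertical axis) of *csrp2* and of *tes*, which was chosen as close to *csrp2*, and the median log2 ratio of 3 gene lists, on each array (horizontal axis), with lines only within a breed to guide the eye and no order among replicates. On LIM replicate 4 *csrp2* (-0.23), *tes* (-0.25), the smooth muscle contractile genes (-0.01), and the fibroblast markers (0.19) lie near 0, while the differentiating muscle cell markers lie at 3.35.

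For each of the 6 genes, the nearest gene with a tested probe on either side was looked up in the order of a current annotation. These genes lay 1 to 6 genes away, and 4 of the 12 were called in the mean of the beef breeds, where 38.9% of all probes were. *nav3*, 2 genes from *csrp2*, was at -0.79 (adjusted p = 0.00505 in limma, lower on 8 of 8 arrays), while *nap1l1*, 5 genes away on the other side, was at -0.12 and was not called. *pole4*, 2 genes from *fhl2*, was at 0.48 (adjusted p = 0.00278 in limma), against -0.59 for *fhl2*. *pfn3*, 5 genes from *pdlim7*, was at -1.15 (adjusted p = 0.000346 in limma), against 0.09 for *pdlim7*. *tnnt2*, 4 genes from *csrp1* and a troponin of developing muscle, was at 3.64 (adjusted p = 5.52e-05 in limma), against 0.28 for *csrp1*.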

How the data were processed

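Gene expression in primary cultures of bovine muscle cells was measured on 8 two-colour Agilent arrays, and breed, dye, and replicate number were taken from the labels. The authors deposited, for each of 44407 spots, the output of Feature Extraction 10.7.3.1: the log10 of red over green, background-subtracted and dye-normalized by that software, intensities of both channels, and marks for outliers, saturation, and spots well above background. The deposited value table of the series holds the same log10 ratio. Intensities printed are the deposited processed intensities. The methods of the study used a t-test in GeneSpring with thresholds of 0.05 on p and 1.3 on the fold change, and whether p was adjusted is not given in the sources used here.

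From the log10 ratio, log2 beef over HF was computed, with the sign turned on the HER arrays. Outlier spots were left out, and spots of a probe were averaged. Probes well above background in 4 or more of the 16 channels (16807 of 21475) were tested with limma 3.58.1 in R 4.3.3 (lmFit, eBayes), with both comparisons in one fit. A call needed a Benjamini-Hochberg adjusted p, over all tested probes, of 0.05 or less and a fold change of 1.3 or more. The steps were tested on simulated data. The number of arrays limits the precision. The p-values set a mean ratio, or a difference of means, against the spread between arrays. "At least" folds were taken per channel after normexp correction (offset 50, marked backgrounds replaced), loess, and Aquantile, against the lowest signal above background, and without balanced dye swaps they are open to dye bias.

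The files used here hold no gene name column, so names came only from accessions (7793 of 20693 matched, RefSeq on ARS-UCD2.0). The array rests on another assembly, and no coordinates are given. The genes and lists were chosen with earlier results of these data known. Named by rule were all matched genes of the group, in each related list up to 3 of the highest and 3 of the lowest genes called in the mean of the beef breeds with one sign on 8 of 8 arrays, and the 5 genes closest to *csrp2*. A gene with several probes was read by the brightest. Marker lists of adipocytes (2 higher, 2 lower of 5 tested in the mean of the beef breeds), endothelial cells (none called of 3, nor at an unadjusted p), leukocytes (1 higher of 2), and dividing cells (1 lower of 3) were also read. Alternatives covered the source of the ratio, centring, scaling, the filter, outlier spots, the test, weights, the replicate number as a block, the threshold, the probe of a gene, and leaving out each array.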

Additional observations from a re-analysis of the deposited data

Results flagged for a closer look

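In 1 of the 12 groups of 4 arrays (6 genes in 2 comparisons), 1 array lay far from the others by Dixon's criterion, which flags about 1 in 20 groups by chance. This was *fhl2* in HER, where replicate 3 had a log2 ratio of -0.99 and the others lay between -0.53 and -0.51.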

How the results depend on the processing

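With 4 arrays per comparison, adjusted calls hung on single arrays and on the test, and the cause was not tested. The sign of the *csrp2* ratio in LIM, in HER, and in their mean was the same under all alternatives, and the LIM minus HER difference of *csrp2* changed sign under 2 of 24. The LIM ratio of *csrp3* changed sign under 3 of 25. The t-test and the fit of 1 comparison give no mean of the beef breeds. With normexp on backgrounds as measured, HER gave 0 probes called (4264 by the scanner's ratio) and 0 of the 6 genes, *csrp2* in HER was at -0.86, the mean of the beef breeds gave 3329 probes, the partners 1 gene called lower, and LIM minus HER 0 probes.

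For HER, 2 of the 6 genes were called with marked backgrounds replaced, without background correction, with centred arrays, by the methods' t-test without adjustment, and by limma on 1 comparison. It was 3 with scaling, array weights, or unadjusted p. For LIM, 1 was called by the methods' t-test without adjustment or by limma on 1 comparison. The methods' t-test after Benjamini-Hochberg adjustment called 0 of the 6 genes in LIM and in HER, with 1114 probes in LIM, 2 in HER, and 28 for LIM minus HER. With 8 of 16 channels, the partners had 1 gene called higher.

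LIM minus HER gave 9 probes and otherwise 1 with marked backgrounds replaced or no background correction, 2 with centring, 0 with scaling or with 8 of 16 channels, 21 with outlier spots kept, 76 with no filter, 130 with array weights, 3 with the mean over the probes of a gene, 1969 by the methods' t-test without adjustment, and 2294 at unadjusted p. None of these counts held 1 of the 6 genes. With the replicate number as a block it gave 1 probe. Same-numbered arrays correlated between -0.245 and 0.560 and only HER replicate 4 correlated best with its own number, so the numbers were not taken to pair arrays, and the block moved no other count by over 1.5 times.

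Leaving out each array in turn gave 3776 to 6915 probes and 1 to 2 of the 6 genes in LIM, 1580 to 5357 probes and 0 to 2 genes in HER, 5736 to 7266 probes and 3 genes in the mean of the beef breeds, and 1 to 2 probes for LIM minus HER.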
